A study of Caenorhabditis elegans with 3 samples.

Results

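Nuclear hormone receptor genes of Caenorhabditis elegans were followed in young adults after RNAi against dcr-1 or drsh-1 and after mock treatment. Members were all genes whose listed name begins with nhr-, which gave 112 of 10168 genes in the 2 deposited tables together. Each table sets 1 RNAi library beside mock and is called here by its target. The dcr-1 table listed 95 of them among 9631 genes, and 108 were among the 9996 genes of the drsh-1 table. In the annotation 269 genes carry an nhr- name. Of these, 158 were listed in neither table, 0 of them under a sequence name, and every member but nhr-144 matched one of the others.

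PolyA RNA of whole young adults was sequenced in 3 libraries, 1 of dcr-1 RNAi, 1 of drsh-1 RNAi and 1 of mock, all at 2.5 days. What the days are counted from, and the fem-1 allele, are not given in the sources used here. RNAi was by feeding, and all 3 groups were of the fem-1 strain, a sterile strain, used per the labels because loss of dcr-1 function sterilises animals too. dcr-1 encodes Dicer, the RNase III enzyme that makes small RNAs from long duplexes and from microRNA hairpins. drsh-1 encodes Drosha, the nuclear RNase III enzyme that frees those hairpins from their primary transcripts. The series asked what Dicer binding does to RNA levels, with Drosha knockdown and mock as controls. With a single library in each group, the spread between replicates is unknown and nothing below was tested.

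Nuclear hormone receptors are transcription factors with a zinc-finger DNA-binding domain and a ligand-binding domain that senses small lipophilic molecules. In nematodes the family is greatly expanded, mostly from a receptor like vertebrate HNF4, and a small set of receptors has clear counterparts in insects and vertebrates. Worm members are known for coupling diet to fat, propionate and methionine metabolism in the intestine, for responses to toxins and pathogens, and for molting and development.

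Values are FPKM, fragments per kilobase of transcript scaled to sequencing depth, and each log2 ratio is of (FPKM + 1), which understates the ratio of low genes. A gene is listed only where both libraries of its table are above 2 FPKM, so a member under that level in 1 library is missing from that table. Read counts were not analysed here and the depth is unknown. The targeted transcripts were lower in their own libraries, dcr-1 at 23.8 FPKM in dcr-1 RNAi against 36.8 FPKM in mock, and drsh-1 at 20.9 FPKM in drsh-1 RNAi against 31.999 FPKM in mock. The mock value of drsh-1 differs between the tables and is 26.2 FPKM in the dcr-1 table. In bulk RNA, fewer cells of a type and less RNA per cell cannot be told apart.

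The listed receptor transcripts were scarce in these animals. In the dcr-1 table, members had a median of 5.63 FPKM in dcr-1 RNAi, against 6.09 FPKM in mock, where all listed genes had medians of 27.5 FPKM and 27.3 FPKM. In the drsh-1 table the members' medians were 5.31 FPKM in drsh-1 RNAi and 5.51 FPKM in mock. In mock, 72 of the 95 members of the dcr-1 table were under 10 FPKM, and 92 were under the median of all its genes. The most abundant members in mock were nhr-17 at 40.2 FPKM, nhr-86 at 39.4 FPKM, nhr-66 at 34.9 FPKM, nhr-49 at 34.1 FPKM and nhr-23 at 30.2 FPKM, the last pair by the drsh-1 table.

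The family as a whole stayed near its mock level in dcr-1 RNAi, while single members were far from it. The median log2 ratio over 95 members was -0.00, against 0.06 over all genes, and it was -0.06 after centring all genes on their own median. Above mock were 47 members and below it 48 (5341 and 4289 of all genes). At least 2-fold higher were 3 members (6.71% of all genes were), and 3 were lower by that factor (6.53% of all genes). Together these 6 are 6.32% of the members (13.2% of all genes). With the 2 FPKM limit, a gene under 5 FPKM in mock cannot be listed as 2-fold lower. This held for 38 of the 95 members and 1222 of the 9631 genes, so the 2-fold lower shares compare unlike sets. At least 1.5-fold higher were 9 members, or 9.47% of them (16% of all genes), and at least 1.5-fold lower were 14, or 14.7% (13.9% of all genes). In either direction this makes 23 members, 24.2% of them (29.9% of all genes). The summed level of the members was 774 FPKM in dcr-1 RNAi, against 790 FPKM in mock. Without nhr-114 these sums were 719.6 FPKM in dcr-1 RNAi, against 778 FPKM in mock. All genes of the table summed to 819608 FPKM in dcr-1 RNAi, against 668652 FPKM in mock. The share of all members in that total was 0.0945% in dcr-1 RNAi, against 0.118% in mock.

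In drsh-1 RNAi no member was 2-fold from mock, 0 of 108 higher (1.91% of all genes were) and 0 lower (1.59%), against 3.5% of all genes in either direction. Under 5 FPKM in mock, where the 2 FPKM limit allows no 2-fold lower gene, were 48 of these members and 1436 of the 9996 genes. The median log2 ratio over the 108 members was -0.06, against 0.00 over all genes. Above mock were 42 members, while 66 were below it (5040 and 4955 of all genes). At least 1.5-fold higher were 2 members, nhr-28 and nhr-2 (5.45% of all genes were), and at least 1.5-fold lower were 10, or 9.26% (5.19% of all genes), which makes 11.1% in either direction (10.6% of all genes). These 10 were nhr-168 (-0.9995), nhr-79 (-0.81), nhr-19 (-0.81), nhr-101 (-0.74), nhr-126 (-0.71), nhr-64 (-0.70), nhr-87 (-0.67), nhr-22 (-0.64), nhr-201 (-0.62) and nhr-133 (-0.61), nhr-87, nhr-201 and nhr-133 being named after their values were seen. nhr-168, at 2.29 FPKM in drsh-1 RNAi and 5.58 FPKM in mock, lay just inside the 2-fold limit and past it with a pseudocount of 0.1 FPKM (-1.25).

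**Figure D1:**
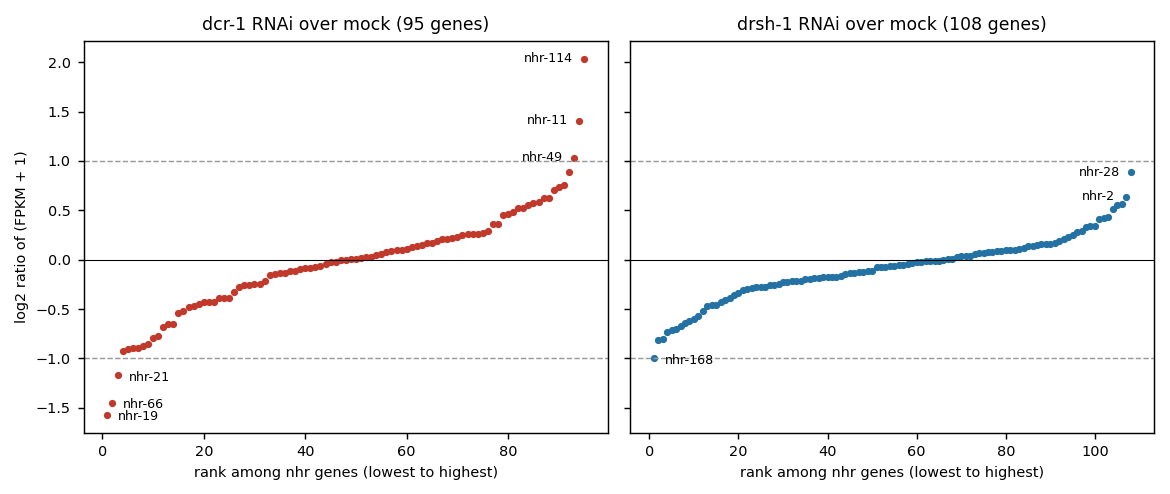
Log2 ratio of (FPKM + 1) of each member against its rank, for dcr-1 RNAi over mock (left, 95 genes) and drsh-1 RNAi over mock (right, 108 genes). Each point is 1 gene in 1 pair of libraries and dashed lines mark 2-fold. On the left 3 genes lie above the upper line and 3 below the lower one, and on the right every point lies between the lines.

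Grouped by mock level, a smaller share of the low-level members than of all genes of the same level was past 2-fold in dcr-1 RNAi. Among genes with 2 to 5 FPKM in mock, 2.63% of 38 members were at least 2-fold from mock in dcr-1 RNAi, against 13.5% of all genes. From 5 to 10 FPKM these shares were 2.94% of 34 members and 14.7% of all genes, from 10 to 20 FPKM 18.75% of 16 members and 17.01% of all genes, and from 20 to 50 FPKM 14.3% of 7 members and 14.7% of all genes. In drsh-1 RNAi they were 0% of the members at each of these levels, against 5.99%, 5.46%, 4.59% and 2.64% of all genes from the lowest level to the highest. At 1.5-fold the gap in dcr-1 RNAi was limited to the lowest level, with 7.89% of members against 30.9% of all genes. There the log2 ratios had a standard deviation across genes of 0.37 over members and 0.67 over all genes. The 1.5-fold shares at the next levels were 32.4% of members and 36.2% of all genes, then 37.5% and 37.1%, then 42.9% and 30.6%. In drsh-1 RNAi they were 6.25% of 48 members and 15.9% of all genes at the lowest level, then 15.6% and 20.5%, then 15% and 13.97%, and 12.5% of 8 members and 7.25% of all genes at the highest. None of these differences was tested, genes are not replicates, and a gene is listed only while its RNAi value is above 2 FPKM. That limit allows no 2-fold lower gene at 2 to 5 FPKM in mock. The 2-fold shares at this level thus count higher genes only, 1 member and 165 of all genes in dcr-1 RNAi.

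**Figure D2:**
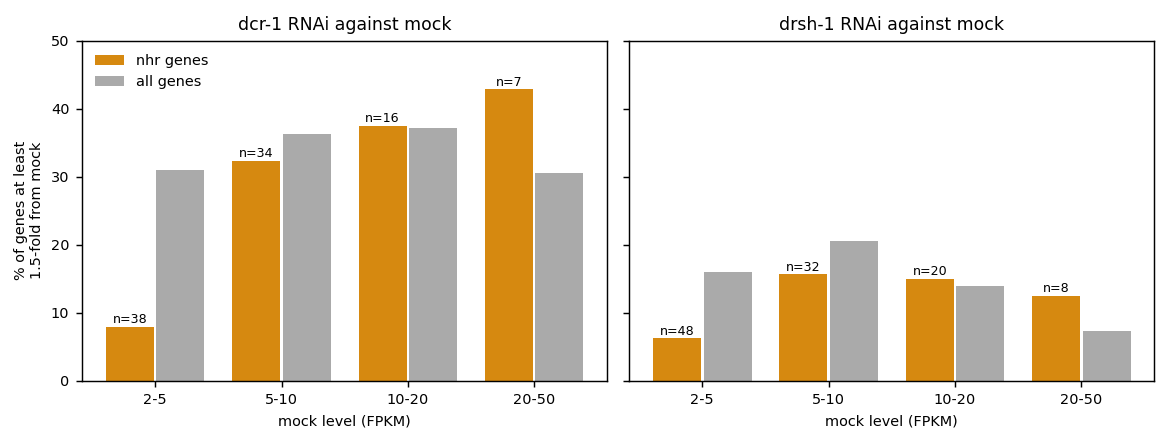
Percentage of genes at least 1.5-fold from mock in either direction, by mock level in FPKM, for dcr-1 RNAi (left) and drsh-1 RNAi (right). Orange bars are members, with their number, and grey bars all genes of the table. The members' bar is below that of all genes at 2 to 5 FPKM in both panels, 7.89% against 30.9% and 6.25% against 15.9%, and above it at 20 to 50 FPKM.

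The receptors of fat, propionate, vitamin B12 and energy metabolism had a median above that of all genes in dcr-1 RNAi. All 11 were listed, 8 were above mock and 3 below, and their median log2 ratio was 0.47, against 0.06 over all genes. At least 1.5-fold higher were 4, nhr-114, nhr-49, nhr-28 and nhr-80 (16% of all genes were), and 1 was lower, nhr-66 (13.9% of all genes). In drsh-1 RNAi 8 of the 11 were above mock, with a median of 0.16, and 1 was at least 1.5-fold higher, nhr-28 (5.45% of all genes), and 1 lower, nhr-64 (5.19% of all genes).

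nhr-114 had the highest log2 ratio of any member in dcr-1 RNAi. It encodes an HNF4-like intestinal receptor that protects the germ line on poor diets and switches on methionine cycle genes when methionine or S-adenosylmethionine is short. It was at 54.8 FPKM in dcr-1 RNAi, 18.96 FPKM in drsh-1 RNAi and 12.6 FPKM in mock. Its log2 ratio to mock was 2.04 in dcr-1 RNAi, 4.10-fold, and only 0.55 after drsh-1 RNAi. The library of dcr-1 RNAi thus stood apart from both others. By level nhr-114 was number 1 among the 95 members in dcr-1 RNAi and number 14 in mock, and by log2 ratio it was number 104 of 9631 genes.

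nhr-10 and nhr-68 encode the receptors that act in turn to switch on the propionate shunt, the route that breaks down propionate when vitamin B12 is low. nhr-10 was at 18.4 FPKM in dcr-1 RNAi, 19.6 FPKM in drsh-1 RNAi and 19.5 FPKM in mock, with log2 ratios of -0.08 and 0.01. nhr-68 was at 29.7 FPKM in dcr-1 RNAi, 32.026 FPKM in drsh-1 RNAi and 25.1 FPKM in mock, with log2 ratios of 0.23 and 0.34. Both receptor transcripts were thus within 1.5-fold of mock in both RNAi libraries.

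Genes of the pathways these receptors serve ranged from below mock to far above it. In dcr-1 RNAi alh-8 of the shunt and cbs-1 of the methionine list were below mock, with log2 ratios of -0.56 and -0.25. Of the 5 propionate shunt genes 4 were at least 2-fold higher in dcr-1 RNAi (6.71% of all genes were), while drsh-1 RNAi had 1 such gene (1.91% of all genes). acdh-1, the acyl-CoA dehydrogenase of the shunt, was at 703 FPKM in dcr-1 RNAi, 319 FPKM in drsh-1 RNAi and 47.2 FPKM in mock. The shunt gene hach-1 was at 87.6 FPKM and 55.9 FPKM in these RNAi libraries, against 35.4 FPKM in mock. Of 9 listed methionine cycle and phosphocholine genes, 5 were at least 2-fold higher in dcr-1 RNAi, while drsh-1 RNAi had 0 of 8. sams-1, an S-adenosylmethionine synthetase gene, was at 81.7 FPKM in dcr-1 RNAi, 17.6 FPKM in drsh-1 RNAi and 11.7 FPKM in mock. metr-1, the methionine synthase gene, was at 153 FPKM in dcr-1 RNAi, 46.4 FPKM in drsh-1 RNAi and 42.3 FPKM in mock. Both lists thus had more genes 2-fold higher in dcr-1 RNAi than in drsh-1 RNAi, as all genes did.

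**Figure D3:**
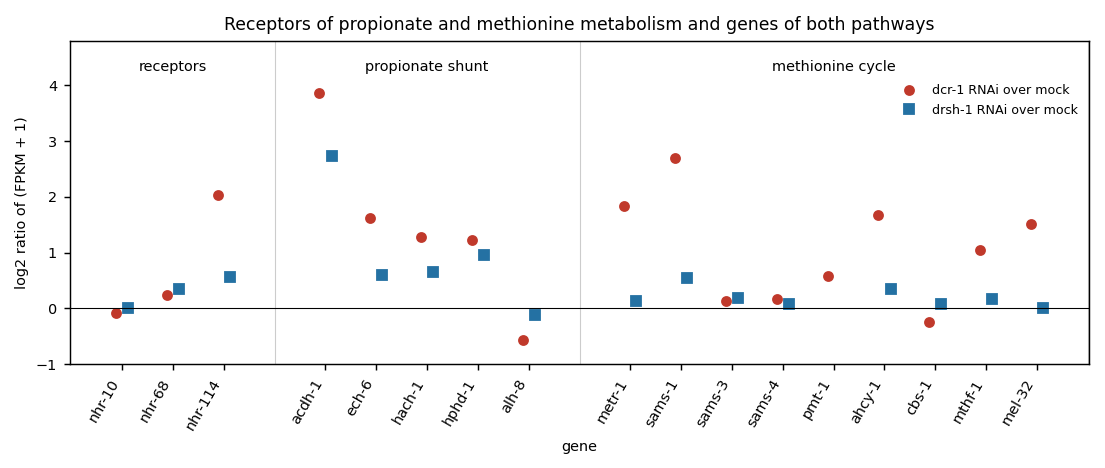
Log2 ratio of (FPKM + 1) over mock for 3 receptor genes, 5 propionate shunt genes and 9 methionine cycle and phosphocholine genes, with dcr-1 RNAi as red circles and drsh-1 RNAi as blue squares. Each point is 1 pair of libraries, and both ratios share the mock library. nhr-114 stands at 2.04 for dcr-1 RNAi and at 0.55 for drsh-1 RNAi, while nhr-10 stays near 0 in both.

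nhr-49 and its partner receptors gave mixed values. nhr-49 encodes an HNF4-like receptor that switches on fatty acid oxidation and desaturation, much as PPAR alpha does in mammals. The dcr-1 table gave 18.3 FPKM in dcr-1 RNAi, against 8.44 FPKM in mock, a log2 ratio of 1.03 that became 0.97 after either rescaling of the libraries and 0.79 with a pseudocount of 5 FPKM, short of 2-fold. The drsh-1 table gave 28.9 FPKM in drsh-1 RNAi and 34.1 FPKM in mock, a log2 ratio of -0.23. The mock value of nhr-49 thus differed between the tables, that of the dcr-1 table being 0.248 of that of the drsh-1 table. The gene has 7 annotated protein-coding transcripts, and which of them each table covers was not tested.

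nhr-66 encodes a partner of NHR-49 in lipid metabolism. It was at 12.1 FPKM in dcr-1 RNAi, 39.1 FPKM in drsh-1 RNAi and 34.9 FPKM in mock. Its log2 ratios were -1.45 and, for drsh-1 RNAi, 0.16, so that the dcr-1 RNAi library was far below both others. nhr-80 encodes another partner, which switches on the stearoyl-CoA desaturase genes. It was at 11.6 FPKM in dcr-1 RNAi, 6.41 FPKM in drsh-1 RNAi and 6.70 FPKM in mock, with log2 ratios of 0.71 and -0.06. nhr-13, a further partner, was at 12.8 FPKM in dcr-1 RNAi, 12.3 FPKM in drsh-1 RNAi and 9.004 FPKM in mock, with log2 ratios of 0.47 and 0.41. Between the RNAi libraries nhr-66 and nhr-80 thus stood on opposite sides, and nhr-13 was close to equal.

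Fat genes linked to NHR-49 went both ways. Of 10 listed, 1 was at least 2-fold higher in dcr-1 RNAi (6.71% of all genes were) and 2 were lower by that factor (6.53%). Their median log2 ratio was 0.13, against 0.06 over all genes, with 6 above mock and 4 below. In drsh-1 RNAi 1 was at least 2-fold higher (1.91% of all genes) and 0 lower (1.59%). The median there was 0.35, against 0.00 over all genes, with 8 above mock and 2 below. acs-2, the acyl-CoA synthetase gene often used as a readout of NHR-49, was at 10.9 FPKM in dcr-1 RNAi, 128 FPKM in drsh-1 RNAi and 169 FPKM in mock. fat-6, a stearoyl-CoA desaturase gene, was at 34.7 FPKM in dcr-1 RNAi, 78.8 FPKM in drsh-1 RNAi and 131 FPKM in mock. Other genes of the list went up. Against mock, fat-5 had log2 ratios of 0.51 (dcr-1 table) and 0.85 (drsh-1 table), and fat-7 of 0.59 and 1.39. fat-7 was near the 2 FPKM limit in mock, at 2.14 FPKM. acox-1.1 had the highest ratio of the list in the dcr-1 table, 1.81, and 0.35 in the other.

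The other metabolic receptors were within 2-fold of mock in both RNAi libraries. nhr-28 was at 6.06 FPKM in both dcr-1 RNAi and drsh-1 RNAi, against 2.82 FPKM in mock, a log2 ratio of 0.89 in each. With a pseudocount of 0.1 FPKM both ratios were 1.08, past 2-fold. nhr-76, which acts in serotonin-driven fat loss, was at 10.3 FPKM in dcr-1 RNAi, 10.2 FPKM in drsh-1 RNAi and 6.86 FPKM in mock. Both genes were higher in both RNAi libraries, which share the mock library. nhr-64, an HNF4-like receptor gene linked to fat content, was at 9.63 FPKM in dcr-1 RNAi, 8.03 FPKM in drsh-1 RNAi and 13.7 FPKM in mock. nhr-62, needed for long life under dietary restriction, was at 3.68 FPKM in dcr-1 RNAi, 3.00 FPKM in drsh-1 RNAi and 2.91 FPKM in mock.

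Of the receptors of xenobiotic, pathogen, iron and hypoxia responses, all 7 were listed, and 0 were 2-fold from mock in either library. However, nhr-14 was 2-fold lower in dcr-1 RNAi with a pseudocount of 0.1 FPKM (-1.08). Past 2-fold in either direction were 13.2% of all genes of the dcr-1 table and 3.5% of the drsh-1 table. A count of 0 among only 7 receptors does not set them apart from these shares. In dcr-1 RNAi 2 were above mock and 5 below, with a median log2 ratio of -0.04, and in drsh-1 RNAi 4 were above and 3 below, with a median of 0.06. nhr-86, which senses a toxic bacterial metabolite, was at 38.2 FPKM in dcr-1 RNAi, 34.8 FPKM in drsh-1 RNAi and 39.4 FPKM in mock. nhr-8, a relative of DAF-12 that acts in toxin resistance and sterol balance, was at 12.4 FPKM in dcr-1 RNAi, 12.6 FPKM in drsh-1 RNAi and 10.6 FPKM in mock. These abundant members thus differed little between the 3 libraries.

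nhr-48, the closest relative of nhr-8, was at 9.02 FPKM in dcr-1 RNAi, 12.7 FPKM in drsh-1 RNAi and 12.1 FPKM in mock. nhr-176, which switches on a cytochrome P450 gene after the drug thiabendazole, was at 5.07 FPKM in dcr-1 RNAi, 6.49 FPKM in drsh-1 RNAi and 4.06 FPKM in mock. nhr-57, a target of the hypoxia factor HIF-1, was at 4.90 FPKM in dcr-1 RNAi, 5.39 FPKM in drsh-1 RNAi and 6.42 FPKM in mock. Of these 3, nhr-57 alone was below mock in both RNAi libraries. nhr-45 was at 4.28 FPKM in dcr-1 RNAi, 4.65 FPKM in drsh-1 RNAi and 4.30 FPKM in mock. nhr-14, which acts in iron uptake and innate immunity, was at 2.52 FPKM in dcr-1 RNAi, against 5.45 FPKM in mock (-0.87), and at 7.49 FPKM in drsh-1 RNAi and 7.89 FPKM in mock (-0.07), so its mock value differs between the tables.

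**Figure D4:**
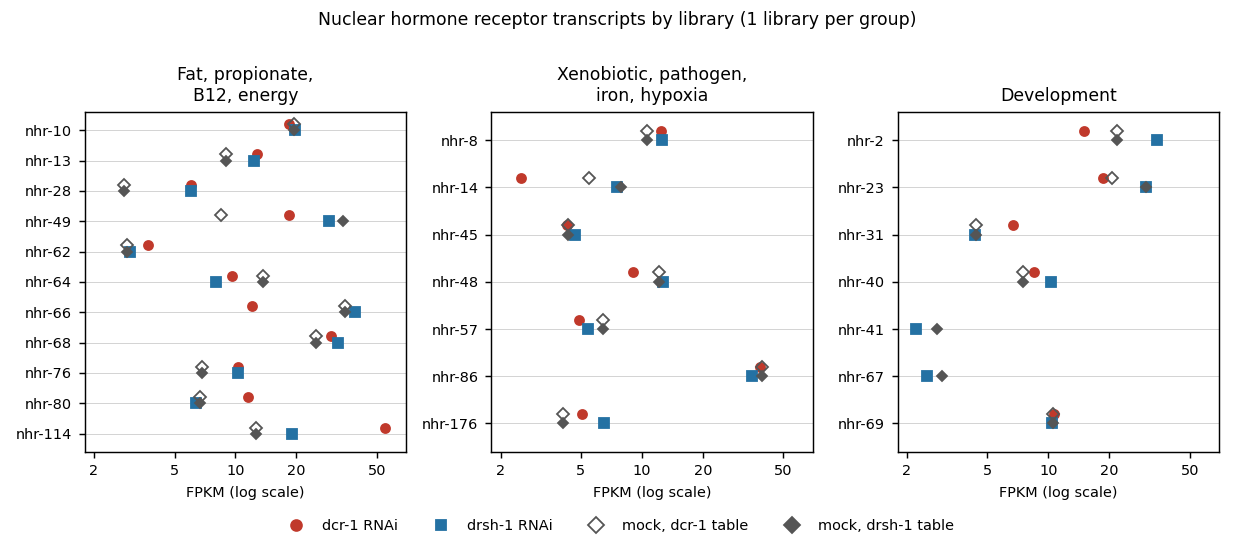
FPKM on a log axis of the members of known role, with dcr-1 RNAi as red circles, drsh-1 RNAi as blue squares, and mock as open diamonds (dcr-1 table) and filled diamonds (drsh-1 table). Each symbol is 1 library. nhr-114 at 54.8 FPKM in dcr-1 RNAi lies far right of its other values, nhr-66 at 12.1 FPKM far left, and the open and filled diamonds of nhr-49 stand apart.

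Of 12 receptors of molting, development, the excretory cell and muscle, 5 were listed in the dcr-1 table and 7 in the drsh-1 table. None was 2-fold from mock, 0 in each table. The share of all genes past 2-fold was 13.2% in the dcr-1 table and 3.5% in the drsh-1 table. With so few receptors listed, a count of 0 does not set them apart from all genes. Their median log2 ratio was 0.00 for dcr-1 RNAi and -0.02 for drsh-1 RNAi. nhr-23, the ROR-type receptor that drives the molting cycle, was at 18.6 FPKM in dcr-1 RNAi, against 20.6 FPKM in mock, and at 30.3 FPKM in drsh-1 RNAi and 30.2 FPKM in mock by the other table. nhr-69 was at 10.6 FPKM in dcr-1 RNAi, 10.5 FPKM in drsh-1 RNAi and 10.6 FPKM in mock. Both genes were level with mock. nhr-31, which controls vacuolar ATPase genes in the excretory cell, was at 6.71 FPKM in dcr-1 RNAi, 4.31 FPKM in drsh-1 RNAi and 4.38 FPKM in mock. nhr-40, which acts in body wall muscle, was at 8.49 FPKM in dcr-1 RNAi, 10.3 FPKM in drsh-1 RNAi and 7.47 FPKM in mock.

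nhr-2, a receptor gene expressed in early embryos, was the developmental member farthest from mock in drsh-1 RNAi. It was at 14.97 FPKM in dcr-1 RNAi, 34.5 FPKM in drsh-1 RNAi and 21.9 FPKM in mock, with log2 ratios of -0.52 and 0.64. The RNAi libraries were thus on opposite sides of mock. Of 9 early embryo markers 4 were listed, pes-10, tbx-37, tbx-38 and vet-6, with summed levels of 19.04 FPKM in dcr-1 RNAi, 61.8 FPKM in drsh-1 RNAi and 12.4 FPKM in mock. All 4 were at least 2-fold higher in drsh-1 RNAi (1.91% of all genes were) and 0 of 4 in dcr-1 RNAi (6.71%). The markers end-1, end-3, med-1, med-2 and sdz-38 were in neither table. Oocyte and germ line markers, 7 of 7 listed, summed to 2001 FPKM in dcr-1 RNAi, 1973 FPKM in drsh-1 RNAi and 1774 FPKM in mock. Their median log2 ratios were 0.08 for dcr-1 RNAi and 0.17 for drsh-1 RNAi. In dcr-1 RNAi 4 were above mock and 3 below, and 1 was at least 2-fold lower (6.53% of all genes were). This was pgl-1, at 7.70 FPKM against 18.4 FPKM in mock. The part of embryos or oocytes in the values of nhr-2 was not tested.

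Of 11 conserved subfamily members, 5 were listed, nhr-8, nhr-23, nhr-41, nhr-48 and nhr-67. The tailless-type gene nhr-67, needed for the anchor cell, and nhr-41 were listed only in the drsh-1 table, at 2.51 FPKM and 2.21 FPKM in drsh-1 RNAi, against 2.97 FPKM and 2.80 FPKM in mock. Receptors of other names were also scarce. daf-12, the dafachronic acid receptor of dauer and developmental timing, appeared in the drsh-1 table alone, at 3.91 FPKM in drsh-1 RNAi and 3.88 FPKM in mock. sex-1, which acts in X chromosome counting, was at 8.21 FPKM in dcr-1 RNAi, 3.21 FPKM in drsh-1 RNAi and 7.03 FPKM in mock. sex-1 was thus lower in drsh-1 RNAi than in both other libraries.

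Members outside these roles were spread around mock in dcr-1 RNAi much as the whole family was. Of 72 in the dcr-1 table, 34 were above mock and 38 below. At least 1.5-fold lower were 12 (13.9% of all genes were), and 5 were higher by that factor (16%). In drsh-1 RNAi 27 of 83 were above mock and 56 below, with a median log2 ratio of -0.12. By at least 1.5-fold, 9 were lower there (5.19% of all genes) and 0 higher (5.45%). In dcr-1 RNAi 1 was at least 2-fold higher (6.71% of all genes) and 2 were lower by that factor (6.53%). nhr-19 had the lowest ratio, at 4.48 FPKM in dcr-1 RNAi, 8.31 FPKM in drsh-1 RNAi and 15.3 FPKM in mock, with log2 ratios of -1.57 and -0.81. nhr-21 was at 7.19 FPKM in dcr-1 RNAi, 13.1 FPKM in drsh-1 RNAi and 17.4 FPKM in mock (-1.17 and -0.39), and the first ratio was -0.88 with a pseudocount of 5 FPKM. For both genes mock was the highest library and dcr-1 RNAi the lowest. nhr-17, the most abundant member in mock, was at 21.2 FPKM in dcr-1 RNAi, 37.1 FPKM in drsh-1 RNAi and 40.2 FPKM in mock (-0.89 and -0.11). nhr-32 was at 5.63 FPKM in dcr-1 RNAi, 8.19 FPKM in drsh-1 RNAi and 11.3 FPKM in mock (-0.90 and -0.43).

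nhr-11 was the member of unknown role with the highest ratio. It was at 10.3 FPKM in dcr-1 RNAi, 2.064 FPKM in drsh-1 RNAi and 3.25 FPKM in mock, with log2 ratios of 1.41 and -0.47. The value in drsh-1 RNAi is near the 2 FPKM limit, and with a pseudocount of 5 FPKM the first ratio was 0.89, short of 2-fold. nhr-97 was at 17.5 FPKM in dcr-1 RNAi, 11.2 FPKM in drsh-1 RNAi and 9.95 FPKM in mock (0.75 and 0.16). In both genes dcr-1 RNAi was the highest library. nhr-101 was at 5.37 FPKM in dcr-1 RNAi, 6.24 FPKM in drsh-1 RNAi and 11.1 FPKM in mock (-0.92 and -0.74), and nhr-79 at 3.83 FPKM in dcr-1 RNAi, 4.17 FPKM in drsh-1 RNAi and 8.06 FPKM in mock (-0.91 and -0.81). nhr-182 was at 4.47 FPKM in dcr-1 RNAi, 5.35 FPKM in drsh-1 RNAi and 3.70 FPKM in mock (0.22 and 0.44).

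The other members at least 1.5-fold from mock in dcr-1 RNAi were named after their values were seen. nhr-138 was at 13.97 FPKM in dcr-1 RNAi, 8.64 FPKM in drsh-1 RNAi and 8.69 FPKM in mock (0.63 and -0.01), and nhr-145 at 6.13 FPKM, 4.87 FPKM and 3.64 FPKM in these libraries in turn (0.62 and 0.34). nhr-274 was at 13.9 FPKM in dcr-1 RNAi, 20.4 FPKM in drsh-1 RNAi and 24.5 FPKM in mock (-0.78 and -0.26). nhr-105 was at 8.39 FPKM in dcr-1 RNAi, 9.27 FPKM in drsh-1 RNAi and 13.8 FPKM in mock (-0.65 and -0.52). These libraries ran in the same order for nhr-274 and nhr-105, with dcr-1 RNAi lowest and mock highest. nhr-87 was at 4.51 FPKM in dcr-1 RNAi, 4.43 FPKM in drsh-1 RNAi and 7.66 FPKM in mock (-0.65 and -0.67). nhr-74 and nhr-135 had log2 ratios of -0.85 and -0.68 in dcr-1 RNAi. The remaining 72 members of the dcr-1 table were within 1.5-fold of mock.

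The RNAi libraries were compared directly over the 85 members whose mock value was equal in both tables. The median log2 ratio of dcr-1 RNAi over drsh-1 RNAi was 0.01, against 0.06 over 9043 genes, with 43 members higher in dcr-1 RNAi and 42 lower. At least 2-fold higher in dcr-1 RNAi were 2, nhr-11 (1.88) and nhr-114 (1.48), where 4.29% of all genes were. At least 2-fold lower were 2, nhr-66 (-1.61) and nhr-2 (-1.15, or -0.98 with a pseudocount of 5 FPKM), where 5.78% of all genes were. By at least 1.5-fold, 7 were higher (13.4% of all genes) and 6 lower (12.7%), 15.3% in either direction (26.2% of all genes). Past 2-fold either way were 4.71% of the members (10.1% of all genes).

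Several members were listed in 1 table only. In the drsh-1 table alone stood 17 members, 15.7% of its 108, against 5.37% of all its genes, and in the dcr-1 table alone 4, 4.21% of its 95, against 1.79% of all its genes. By level the shares were close, 27.1% of 48 members and 25.2% of all genes with 2 to 5 FPKM in mock being in the drsh-1 table only. Of the 17, 13 were under 4 FPKM in mock. The others were nhr-4 at 13.3 FPKM in drsh-1 RNAi and 14.02 FPKM in mock, nhr-88 at 8.37 and 8.68 FPKM, nhr-22 at 4.96 and 8.28 FPKM, and nhr-168. If the dcr-1 RNAi value of nhr-4 was under 2 FPKM, its log2 ratio would be below -2.32, lower than that of any member listed there, but its value in that library is not known. Of the 4 in the dcr-1 table alone, nhr-146 was at 4.30 FPKM in dcr-1 RNAi, against 8.17 FPKM in mock, nhr-212 at 3.71 and 3.07 FPKM, and nhr-177 at 2.72 and 2.41 FPKM.

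For 6 of the 91 members in both tables the mock value differed between the tables, 6.59%, against 4.40% of all genes in both. These were nhr-1, nhr-14, nhr-23, nhr-34, nhr-49 and nhr-71, whose mock value in the dcr-1 table was between 0.248 and 0.691 of that in the drsh-1 table. All 6 have several annotated protein-coding transcripts, against 48.8% of the members with equal values. nhr-71 was at 15.1 FPKM in dcr-1 RNAi, against 8.68 FPKM in mock in the dcr-1 table (0.74), and at 18.3 FPKM in drsh-1 RNAi and 17.5 FPKM in mock in the drsh-1 table (0.06). The part of transcript number in the unequal mock values was not tested, and the ratios of these 6 to mock are not set against each other here.

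**Figure D5:**
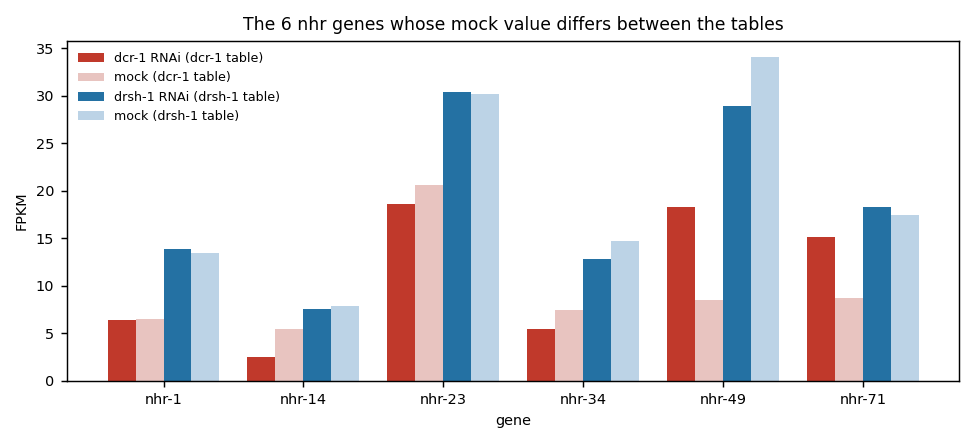
FPKM of the 6 members whose mock value differs between the tables, with the RNAi library (dark) left of the mock library (pale), red for the dcr-1 table and blue for the drsh-1 table. Each bar is 1 library. For nhr-49 the pale red bar is at 8.44 FPKM and the pale blue bar at 34.1 FPKM, though both stand for mock.

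Coregulators that work with nuclear receptors were below mock for the most part. After dcr-1 RNAi 8 of 12 were below it (4289 of 9631 genes were), and after drsh-1 RNAi 11 of 13 (4955 of 9996 genes). Of the 12, 6 were at least 1.5-fold lower in dcr-1 RNAi (13.9% of all genes were) and 0 higher (16% of all genes), with a median log2 ratio of -0.38. In drsh-1 RNAi 0 of 13 were 1.5-fold apart (10.6% of all genes were), with a median of -0.11, and neither list was tested against other genes. mdt-15, the Mediator subunit that binds NHR-49, was at 10.5 FPKM in dcr-1 RNAi, against 33.4 FPKM in mock (-1.58), and at 37.2 FPKM in drsh-1 RNAi and 44.7 FPKM in mock (-0.26) by the other table. let-526, a chromatin remodelling subunit gene, was at 26.7 FPKM in dcr-1 RNAi, 62.1 FPKM in drsh-1 RNAi and 70.8 FPKM in mock. Of 9 steroid hormone and sterol genes, 4 were listed in the dcr-1 table and 5 in the drsh-1 table. Their medians were 0.33 and -0.06, and 0 were at least 2-fold from mock (13.2% and 3.5% of all genes were). daf-36, which makes a precursor of dafachronic acid, was at 9.43 FPKM in dcr-1 RNAi, 16.5 FPKM in drsh-1 RNAi and 10.1 FPKM in mock. Of 13 molting genes 5 were listed, with median log2 ratios of -0.07 for dcr-1 RNAi and -0.11 for drsh-1 RNAi. Of the 5, mlt-8 was at least 2-fold higher in dcr-1 RNAi (6.71% of all genes were), at 8.12 FPKM against 3.25 FPKM in mock. The cuticle genes noah-1 and noah-2 were at least 2-fold lower in drsh-1 RNAi (1.59% of all genes were). They were at 2.16 FPKM and 2.56 FPKM there, against 10.4 FPKM and 12.6 FPKM in mock, while nhr-23 was level. The listed genes nas-37 and lrp-1 were within 1.5-fold of mock in both RNAi libraries.

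Marker genes of tissues in which these receptors act were listed as follows. Intestinal markers, 8 of 9, summed to 470 FPKM in dcr-1 RNAi, 777 FPKM in drsh-1 RNAi and 1184 FPKM in mock, of which the protease gene cpr-1 alone had 181 FPKM, 593 FPKM and 1030 FPKM. Without cpr-1, left out after its values were seen, the other 7 ran the other way and summed to 289 FPKM in dcr-1 RNAi, 184 FPKM in drsh-1 RNAi and 153 FPKM in mock. The median log2 ratio of these markers was 0.06 for dcr-1 RNAi and 0.17 for drsh-1 RNAi, and elt-2, the defining intestinal GATA factor gene, was at 5.49 FPKM and 6.89 FPKM in these libraries, against 5.81 FPKM in mock. Epidermal markers summed to 39.96 FPKM in dcr-1 RNAi, against 45.4 FPKM in mock over 4 of 7, and to 19.02 FPKM in drsh-1 RNAi and 38.9 FPKM in mock over 3 of 7. Muscle markers, 4 of 6, summed to 401 FPKM in dcr-1 RNAi, against 177 FPKM in mock, and to 224 FPKM in drsh-1 RNAi and 215 FPKM in mock. These sums were mostly unc-54 and unc-15, at 183 FPKM and 189 FPKM in dcr-1 RNAi, against 83.5 FPKM and 69.8 FPKM in mock. The mock value of unc-15 differs between the tables and is 108 FPKM in the drsh-1 table. Log2 ratios of myo-2 and myo-3 were 0.21 and 0.32 in dcr-1 RNAi, and -0.28 and -0.31 in drsh-1 RNAi. Neuronal markers, 4 of 6, summed to 329.9 FPKM in dcr-1 RNAi, 315 FPKM in drsh-1 RNAi and 342 FPKM in mock. Most of each sum was snb-1, with 293 FPKM, 284 FPKM and 297 FPKM in these libraries in turn. The neuronal median log2 ratio was -0.20 in the dcr-1 table, where 3 of 4 were below mock. In the drsh-1 table it was -0.45, and all 4 were below. Sperm markers, 3 of 6, summed to 24.6 FPKM in dcr-1 RNAi, 12.5 FPKM in drsh-1 RNAi and 14.3 FPKM in mock. The part of these tissue markers in the receptor values was not tested.

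The annotation gave 2 further descriptions of the members. Their longest annotated 3′ untranslated region had a median of 120.5 bases over 94 members of the dcr-1 table, against 162 bases over 8980 genes. Across genes, its rank correlation with the log2 ratio in dcr-1 RNAi was -0.08 over these members and -0.29 over all these genes, which are not independent replicates and share the same pair of libraries. In gene order, 137 of the annotated nhr- genes stand next to another one, and 49 of these were members, 35.8%, against 47.0% of the 132 that stand alone. In 1 such run, singled out after its values were seen, nhr-122, nhr-92, nhr-87 and nhr-146 follow each other and all were below mock in dcr-1 RNAi, with log2 ratios between -0.79 and -0.24. Reads can be shared between similar neighbouring receptors, so values of single genes in such runs are uncertain.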

How the data were processed

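The authors deposited 2 tables without a header, 1 per RNAi target, with gene name, mock FPKM, RNAi FPKM and their log2 ratio. The name of a table gave its RNAi library; mock is the column both tables share and the denominator of the deposited log2 ratio, which recomputation matched to within 5.0e-12. SAMtools, Cufflinks, Cuffdiff 2.1.1, TopHat2 2.06 and CASAVA 1.8.2 are named, without roles, per the submitters' processing notes. Build, annotation and scaling between libraries are not given in the sources used here. Coordinates are therefore left out. No listed value is 2 FPKM or less.

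Log2 ratios of (FPKM + 1) were computed with Python 3.11.15 and pandas 2.3.3 over all genes of a table, and code was tested on simulated data. The RNAi libraries were compared over genes whose mock values agreed to 1e-09 FPKM. With 1 library per group there is no test; 2-fold and 1.5-fold counts describe size. Transcripts, 3′ untranslated regions and gene order come from the WBcel235 annotation.

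The members, lists and naming rule were chosen with earlier results of these data known. The text names members at least 2-fold apart in any comparison, the 6 highest and 6 lowest against mock, the 5 most abundant in mock, members of known role and the top 3 of each table alone. Pseudocounts of 0.1 and 5 FPKM, a minimum mean of 5 FPKM, both rescalings and leaving out unequal mock values were tried.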

Additional observations from a re-analysis of the deposited data

How the results depend on the processing

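No paired analysis was possible because each group had 1 library. The 6 members past 2-fold in dcr-1 RNAi kept their direction under every alternative that tested them, and so did the 4 of the direct comparison. With a pseudocount of 0.1 FPKM, 7 members were at least 2-fold lower in dcr-1 RNAi (3 as reported), and in drsh-1 RNAi 1 was 2-fold higher, 1 was 2-fold lower and 4 were 1.5-fold higher. With 5 FPKM, 1 was 2-fold higher, 4 were 1.5-fold higher and 7 were 1.5-fold lower in dcr-1 RNAi. In drsh-1 RNAi 0 were then 1.5-fold higher and 1 lower, and between the RNAi libraries 1 was 2-fold lower, 2 were 1.5-fold higher and 3 were 1.5-fold lower. These shifts follow from the pseudocount's own construction. A minimum mean of 5 FPKM leaves fewer members, and in drsh-1 RNAi 1 was 1.5-fold higher and 6 were lower. After centring on the median ratio, 1 was 2-fold lower in drsh-1 RNAi, nhr-168, and 4 were 1.5-fold higher in dcr-1 RNAi than in drsh-1 RNAi, also 4 with a common upper quartile (7 as reported). In dcr-1 RNAi against mock, where all genes split into 646 higher and 629 lower by 2-fold, these rescalings gave 554 and 695, and 545 and 702. No median of the members moved by 0.1 or more. The unknown depth and the single library per group limit every value.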
